A study of Mus musculus and Mus musculus
Rattus norvegicus with 30 samples.

Results

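The 10 Hoxb genes (Hoxb1, Hoxb2, Hoxb3, Hoxb4, Hoxb5, Hoxb6, Hoxb7, Hoxb8, Hoxb9 and Hoxb13) were followed in mouse embryonic stem cells (mESC) and in rat-mouse hybrid embryonic stem cells (RMES), by their RNA levels, the accessibility of their chromatin and the binding of Cdx2. They were selected by gene symbol, as 10 of the 19919 genes listed in both mESC expression tables. No measured value entered the rule of selection, though earlier results of these data were known when it was made. In the mouse genome (GRCm38, the build also named mm10) they lie on the + strand of chromosome 11, from the start of Hoxb13 at 96194316 to the end of Hoxb1 at 96368256. All 10 were listed in the mESC table and in the mouse-allele and rat-allele tables of the RMES cells.

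Hox genes encode homeodomain transcription factors that give cells their position along the head-to-tail axis, and the order of the genes in a cluster follows the order of their expression domains. Genes at the 3′ end, such as Hoxb1 and Hoxb2, act in the hindbrain, genes in the centre act in the neck and trunk, and Hoxb13 at the 5′ end acts in the tail and prostate. Cdx2 is a homeodomain factor that activates central Hox genes in the posterior embryo, and it also specifies trophectoderm, the lineage from which the placenta forms.

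In mESC, Flag-tagged Cdx2 was delivered by lentivirus and induced with doxycycline through a Tet-On system. The constructs were mouse Cdx2 (mCdx2-OE), rat Cdx2 (rCdx2-OE) and 7 mutants of rat Cdx2 named R1, R2, R3, R12, R13, R23 and R123 after the mouse-specific changes they carry in the DNA-binding domain, where change 1 replaces a tyrosine by phenylalanine, change 2 an alanine by serine and change 3 deletes an asparagine. Each construct and the WT mESC had 2 RNA-seq libraries. The RMES cells, a fusion of haploid mouse and haploid rat embryonic stem cells, had 2 WT libraries, 1 mCdx2-OE library and 1 rCdx2-OE library, and their reads had been assigned to the mouse or the rat genome. ATAC-seq covered WT and mCdx2-OE mESC, and ChIP-seq covered mCdx2-OE and rCdx2-OE in mESC and in RMES, with 1 library each. The ChIP antibody was against Flag, so the Cdx2 peaks are those of the tagged constructs and leave out untagged Cdx2 of the cells. The study describes the mESC comparison as cells without and with doxycycline, and the labels call the reference samples WT. Whether a line was 1 clone and whether the 2 libraries of a condition came from separate cultures was not given, so p-values measure the spread between libraries, which may be technical.

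Levels are given in CPM, read pairs scaled to the TMM-adjusted library total, which makes them comparable between libraries for 1 gene. WT mESC libraries held 74960057 and 94686029 counted read pairs and the 18 induced mESC libraries 12698443 to 24315929, so 3 read pairs, the floor used here for detection, equal 0.0342 to 0.0425 CPM in WT and up to 0.241 CPM in a mutant library. Cdx2 itself measured 1.36 and 1.21 CPM in WT mESC, 97.9 and 127 with mCdx2-OE, 70.4 and 67.0 with rCdx2-OE and 37.2 to 146 in the 14 mutant libraries. Reads of mESC were aligned to the mouse genome, so those of the rat constructs were counted on the mouse gene. Cdx2 levels of the mouse and the rat constructs may therefore not be comparable. The 6 embryonic stem cell markers (Pou5f1, Sox2, Nanog, Zfp42, Esrrb and Klf4) were present in every mESC library, with summed levels of 3378 to 3397 CPM in WT and 2166 to 3434 in the induced libraries. A list of 9 fibroblast markers, all listed, summed to 35.0 to 35.3 CPM in WT with none at 0, against 1.28 to 4.46 in the induced libraries with Lum at 0 throughout, and 8 trophoblast markers summed to 166.7 to 167.3 CPM in WT against 367 to 478 in mCdx2-OE and rCdx2-OE and 139 to 214 in the 14 mutant libraries, with none at 0 in any of these groups. The part of these markers in the Hoxb values was not tested. In bulk libraries such as these, fewer cells that express a gene and less RNA per cell cannot be told apart.

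Cdx2 bound the cluster most strongly around Hoxb8 and Hoxb4, and the stretches under the 3 mESC Cdx2 peaks with the most reads are printed because the results on binding turn on them. They are read 5′ to 3′ from the + strand of GRCm38, with matches to the Cdx2 motif in capitals (GNNATAAA, or TTTATNNC where the match is on the other strand). The first (chr11:96281749-96281904) is the part of the central 300 bases of the strongest peak that precedes the Hoxb8 start site. That peak begins at 96281629, and its bases ahead of the stretch are not printed. The second lies between Hoxb9 and Hoxb8 (chr11:96277895-96278194). The third lies within Hoxb4, under a peak that overlaps one of its exons (chr11:96319218-96319517).
Hoxb8 start: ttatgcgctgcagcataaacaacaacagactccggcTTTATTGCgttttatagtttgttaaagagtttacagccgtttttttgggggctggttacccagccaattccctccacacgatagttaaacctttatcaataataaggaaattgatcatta
Hoxb9 to Hoxb8: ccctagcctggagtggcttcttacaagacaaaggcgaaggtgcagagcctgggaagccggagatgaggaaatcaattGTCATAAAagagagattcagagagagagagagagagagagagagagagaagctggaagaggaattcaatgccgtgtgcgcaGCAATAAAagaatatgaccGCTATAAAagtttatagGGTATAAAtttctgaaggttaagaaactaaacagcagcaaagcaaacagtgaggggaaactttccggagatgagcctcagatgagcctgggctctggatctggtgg
Hoxb4 body: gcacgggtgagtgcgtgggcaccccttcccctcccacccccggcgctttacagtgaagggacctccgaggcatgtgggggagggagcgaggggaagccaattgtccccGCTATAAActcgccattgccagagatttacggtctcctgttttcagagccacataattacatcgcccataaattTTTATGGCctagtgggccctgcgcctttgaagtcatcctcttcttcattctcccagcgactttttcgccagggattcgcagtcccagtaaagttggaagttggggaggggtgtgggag
The Hoxb8 stretch holds 1 motif match in 156 bases, the stretch between Hoxb9 and Hoxb8 holds 4 in 300 bases, all on the + strand, and the Hoxb4 stretch holds 2 in 300 bases, 1 on each strand.

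In WT mESC the cluster was nearly silent apart from Hoxb9 and Hoxb13. On the per-length scale (CPM per kb of exon), Hoxb9 stood highest at 0.789 ± 0.0884 (SD, n = 2) and Hoxb13 second at 0.460 ± 0.0962, while the remaining 8 genes averaged 0.109 or less. In the 4 libraries of mCdx2-OE and rCdx2-OE the order became Hoxb9 at 3.19 ± 0.325 (SD, n = 4), Hoxb4 at 1.15 ± 0.172, Hoxb8 at 0.596 ± 0.139 and Hoxb3 at 0.417 ± 0.208. Hoxb9, Hoxb4 and Hoxb8 were separated from one another in this order, whereas from Hoxb8 downward each gene overlapped the one above it in the range of its libraries. Hoxb1 stood lowest, at 0.0323 ± 0.0374 CPM per kb.

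**Figure D1:**
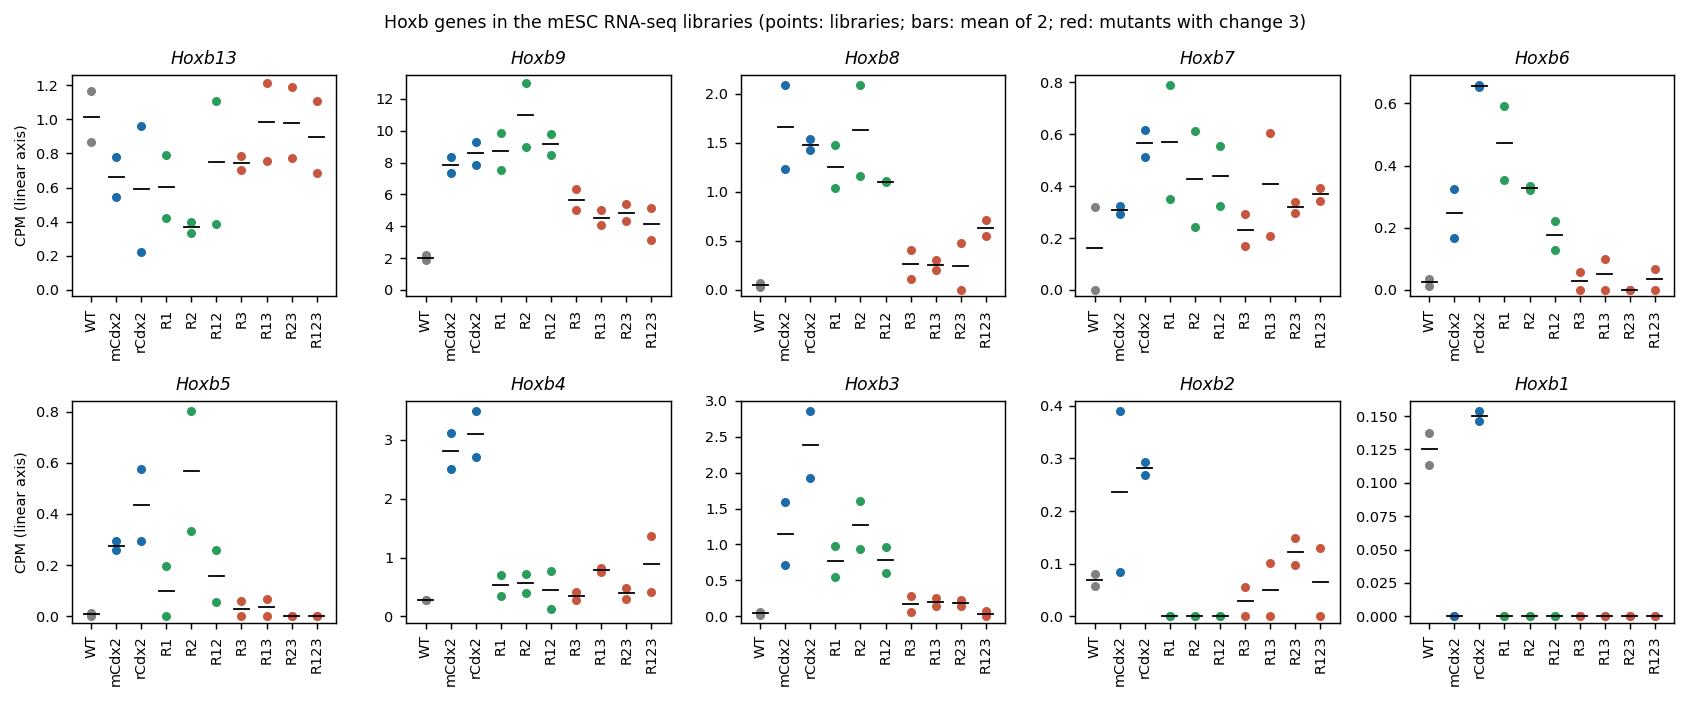
Level of each Hoxb gene in CPM (linear axis, scaled per gene) in the 20 mESC RNA-seq libraries, with 1 point per library and a bar at the mean of 2. Hoxb9, Hoxb8, Hoxb6 and Hoxb3 are lower in the 4 mutants with change 3 (red) than in rCdx2 and the 3 mutants without it (green), whereas Hoxb4 is high with mCdx2 and rCdx2 alone (blue, 2.51 to 3.50 CPM).

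The first comparison asked which Hoxb genes respond when Cdx2 of either species is induced in mESC. Of the 10 genes, 8 passed the filter on low counts, and the same 6 central genes rose with mCdx2-OE and with rCdx2-OE: Hoxb9, Hoxb8, Hoxb6, Hoxb5, Hoxb4 and Hoxb3. A call required an adjusted p below 0.05 by the quasi-likelihood test of edgeR (Benjamini-Hochberg adjustment over all genes tested) and a change over 2-fold. Among all 16000 genes tested, 18.4% were called higher with mCdx2-OE and 19% with rCdx2-OE, and 15% and 15.4% lower, where no member was. The median log2 fold change was -0.03 and -0.04, over all genes, against 3.13 and 3.96 over the 8 tested members. Members that passed the filter only through induced libraries had to be higher there, and Hoxb8, Hoxb7, Hoxb6, Hoxb5, Hoxb4 and Hoxb3 did so. Of the 6 called higher, only Hoxb9 would also have passed on the WT libraries. The counts of calls and these medians therefore describe the 8 genes and not the cluster. Both constructs were compared with the same 2 WT libraries, and the fitted fold changes of genes with fewer than 10 WT read pairs in each library (Hoxb8, Hoxb6, Hoxb5 and Hoxb3) depend on the small count that edgeR adds.

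Hoxb8, a gene of the trunk, measured 0.0708 and 0.0342 CPM in WT, 2.09 and 1.24 with mCdx2-OE and 1.42 and 1.54 with rCdx2-OE. All 4 induced libraries lay above both WT libraries, with log2 fold changes of 4.93 ± 0.60 and 4.72 ± 0.62 (adjusted p = 2.2e-06 and 4.4e-06, edgeR, values ± SE). Hoxb9, which patterns the thoracic skeleton, started from a higher level of 1.87 and 2.19 CPM and reached 8.36 and 7.35 with mCdx2-OE and 7.84 and 9.31 with rCdx2-OE. Its rise was the smallest of the 6 on the log2 scale, at 1.95 ± 0.22 and 2.06 ± 0.22 (adjusted p = 8e-07 and 4.1e-07, edgeR), and the groups did not overlap.

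Hoxb4, a gene of the hindbrain boundary and of blood stem cells, measured 0.283 and 0.274 CPM in WT, 2.51 and 3.12 with mCdx2-OE and 3.50 and 2.71 with rCdx2-OE. The log2 fold changes were 3.30 ± 0.44 and 3.47 ± 0.43 (adjusted p = 5.2e-06 and 2.5e-06, edgeR), with no overlap between induced and WT libraries. Hoxb3, a hindbrain gene, measured 0.0567 and 0.0228 CPM in WT, 1.59 and 0.715 with mCdx2-OE and 1.92 and 2.86 with rCdx2-OE. Its log2 fold changes were 4.79 ± 0.61 and 5.75 ± 0.57 (adjusted p = 3.3e-06 and 1.8e-07, edgeR), and again every induced library stood above WT.

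Hoxb5 and Hoxb6, neighbours in the centre of the cluster that act in the lung, limb and trunk, were close to undetected in WT, with 1 and 0 read pairs for Hoxb5 and 1 and 3 for Hoxb6. Induced libraries held 7 and 4 pairs of Hoxb5 with mCdx2-OE and 15 and 4 with rCdx2-OE, from libraries several times shallower than WT. Those of Hoxb6 held 4 and 5 pairs with mCdx2-OE and 17 and 9 with rCdx2-OE. The ratio of summed counts, scaled to library size, was 44.3 for Hoxb5 with mCdx2-OE, with an exact 95% counting interval of 6.43 to 1906, and 9.06 for Hoxb6 (2.53 to 40.2). With rCdx2-OE the ratios were 75.8 (12.0 to 3149) and 25.9 (8.99 to 102). These intervals cover counting error only. By edgeR the adjusted p was 0.0023 and 0.0042 with mCdx2-OE, and 0.00028 and 1.8e-05 with rCdx2-OE. With the WT libraries thinned to the depth of the induced ones, an alternative chosen after seeing the data, both mCdx2-OE calls were lost (adjusted p = 0.076 and 0.058, edgeR) and both rCdx2-OE calls remained.

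Hoxb7 and Hoxb13 were not called. Hoxb13 measured 0.864 and 1.16 CPM in WT, 0.543 and 0.780 with mCdx2-OE and 0.961 and 0.220 with rCdx2-OE, and WT and induced libraries overlapped. Its log2 fold changes were -0.66 ± 0.48 and -0.60 ± 0.47 (adjusted p = 0.23 and 0.26, edgeR), and the second became -2.18, adjusted p = 0.022, past the threshold, without replicate 1 of rCdx2-OE. For Hoxb7 the WT libraries disagreed, with 0 and 28 read pairs, while induced libraries measured 0.293 and 0.325 CPM with mCdx2-OE and 0.615 and 0.513 with rCdx2-OE. The log2 fold changes of Hoxb7 were 0.82 ± 0.91 and 1.72 ± 0.79 (adjusted p = 0.43 and 0.063, edgeR), and without replicate 2 of WT they became 5.65 and 6.55 (adjusted p = 0.00096 and 0.00011, edgeR).

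Hoxb1 and Hoxb2, the hindbrain genes at the 3′ end, did not pass the filter and were not tested in mESC. Hoxb2 had 4 and 7 read pairs in WT, 2 and 6 with mCdx2-OE and 7 and 4 with rCdx2-OE, which gives count ratios of 2.93 (1.02 to 7.99) and 3.99 (1.57 to 10.1) over WT. Hoxb1 had 8 and 12 pairs in WT, 0 in both mCdx2-OE libraries and 4 and 2 in the rCdx2-OE libraries, levels near the floor of 3 pairs in the induced libraries.

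mCdx2-OE and rCdx2-OE were then compared directly. edgeR called 0 of 8 members, where 0.0187% of all 16000 genes were called in either direction, and DESeq2 called 0. An unadjusted p below 0.05 was found for 2 members, beside 857 of the 16000 genes (edgeR). The differences (mCdx2-OE minus rCdx2-OE, log2) reached -1.48 ± 0.60, adjusted p = 0.87 for Hoxb6 and -0.96 ± 0.44, adjusted p = 0.93 for Hoxb3 (edgeR), and Hoxb8 differed by 0.21 ± 0.47. For Hoxb13, Hoxb7, Hoxb6 and Hoxb5 a 2-fold difference is smaller than 2 SE, so it was not detectable at this depth. The 1.94-fold difference in Hoxb3 had an unadjusted p of 0.044 and was not called (edgeR). For Hoxb3, Hoxb4 and Hoxb8 (SE 0.44, 0.39 and 0.47) a 2-fold difference is therefore not excluded by the missing call either.

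**Figure D2:**
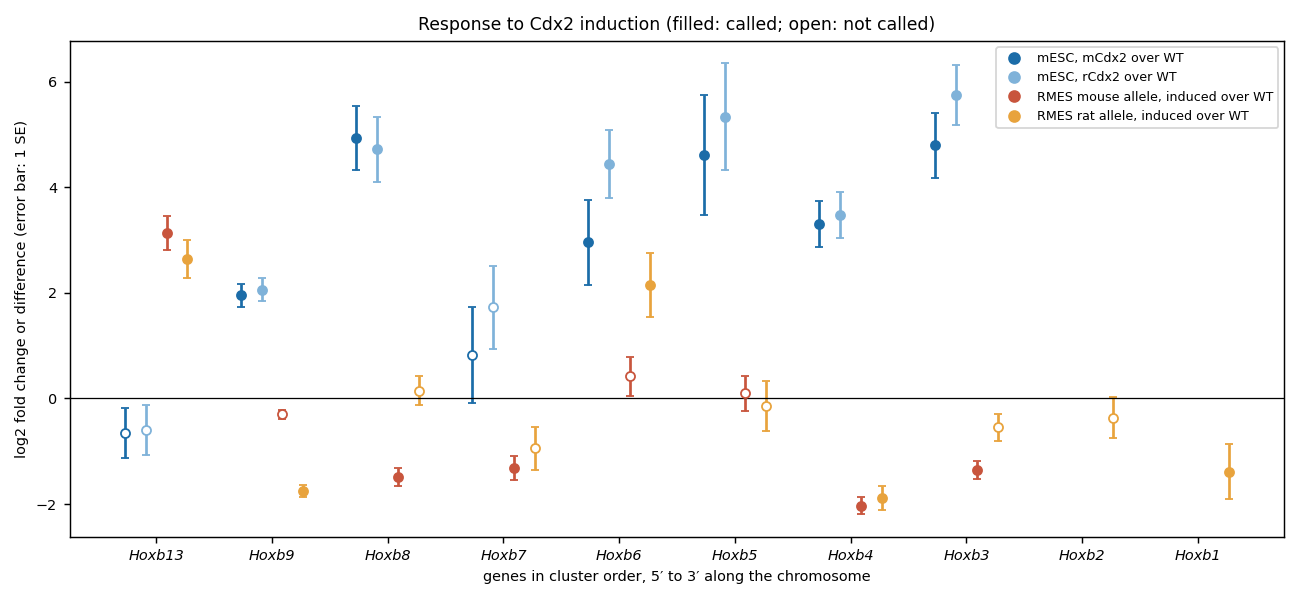
Log2 fold change on Cdx2 induction for the Hoxb genes in cluster order (points, ± 1 SE), for mCdx2-OE and rCdx2-OE over WT in mESC and for induced over WT RMES cells on each allele. In mESC the 6 genes called higher sit between 1.95 and 5.75, whereas in RMES Hoxb13 is the member furthest above 0, at 3.13 and 2.64, and Hoxb4 lies below 0 on both alleles.

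The 7 mutants were compared with the same 2 WT libraries, to ask whether the mouse-specific changes alter the response alone or in combination. Hoxb9 and Hoxb8 rose in all 7 mutants, Hoxb3 in R1, R2, R12 and R13, Hoxb6 in R1, R2 and R12, Hoxb5 in R2 and R12, and Hoxb4 in R13 and R123. Hoxb7 was called in none, and Hoxb13 fell in R2 (-1.48 ± 0.57, adjusted p = 0.035, edgeR), from 0.864 and 1.16 CPM in WT to 0.401 and 0.333, where 12.8% of all genes were called lower. In number of members called higher, the mutants ranged from 2 of 8 tested in R3 and R23 to 5 of 8 in R2 and R12, where 12.2% of all genes were called higher in R3, 13.8% in R23, 10.6% in R2 and 10.6% in R12. R1 and R13 had 4 members called higher (backgrounds 10.1% and 13.6%) and R123 had 3 (14%). These counts share the limit set by the filter.

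Hoxb9 measured 7.53 and 9.87 CPM in R1, 8.98 and 12.98 in R2 and 8.51 and 9.80 in R12, against 5.00 and 6.35 in R3, 4.05 and 5.05 in R13, 4.31 and 5.41 in R23 and 3.16 and 5.15 in R123. Each of the 14 libraries lay above WT, and each of the 6 libraries without change 3 lay above each of the 8 libraries with it. The log2 fold change over WT ran from 1.03 ± 0.25, adjusted p = 0.0015 in R123 to 2.44 ± 0.22, adjusted p = 1.3e-07 in R2 (edgeR). The R123 call fell below 2-fold without replicate 1 of WT (0.93) and without replicate 2 of R123 (0.63), and the R13 call without replicate 2 of R13 (0.99).

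Hoxb8 measured 1.48 and 1.04 CPM in R1, 2.08 and 1.16 in R2 and 1.10 and 1.11 in R12, against 0.112 and 0.411 in R3, 0.206 and 0.303 in R13, 0 and 0.483 in R23 and 0.550 and 0.718 in R123. The R1, R2 and R12 libraries were all above the highest library with change 3. Log2 fold changes were 4.82 ± 0.63, adjusted p = 8e-06 in R2 and 3.51 ± 0.75, adjusted p = 0.00065 in R123, and between 2.23 and 2.37 in R3, R13 and R23 (edgeR). The calls in R3, R13 and R23 were each lost without replicate 2 of WT (log2 1.78, 1.79 and 1.92). They were also lost without replicate 2 of R3 (1.07), without replicate 1 or 2 of R13 (2.46 and 1.91) and without replicate 2 of R23, whose other library held no Hoxb8 pair (-3.41).

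The calls of Hoxb3 in R13, Hoxb4 in R13 and R123, Hoxb5 and Hoxb6 in R12 and Hoxb13 in R2 each depended on single libraries. Hoxb3 in R13 went from 2.26 ± 0.92 to 1.71 without replicate 2 of R13, 2.57 without replicate 1 and 1.73 without replicate 2 of WT, and Hoxb4 in R123 from 1.67 ± 0.54 to 0.56 without replicate 2 of R123. Hoxb4 in R13 (1.48 ± 0.54) lost its call without any 1 of the 4 libraries compared, at 1.42 to 1.55. Hoxb6 in R12 lost its call without replicate 1 of WT (2.20) or replicate 2 of R12 (2.14), Hoxb5 in R12 without replicate 2 of WT (2.93) or replicate 1 of R12 (2.39), and Hoxb13 in R2 without either R2 library (-1.599 and -1.33) or replicate 2 of WT (-1.24).

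The effect of each amino acid change was estimated across the 16 libraries of rCdx2-OE and its 7 mutants. Each construct was delivered to cells separately and gave 2 libraries, which the fit took as separate units. Effects of a change and other differences between the lines can therefore not be fully told apart. Change 3, the asparagine deletion, went with lower levels of 5 of the 8 tested members: Hoxb9, Hoxb8, Hoxb6, Hoxb5 and Hoxb3. A background of 18.4% of the 15114 genes tested was called lower and 18.2% higher (adjusted p below 0.05, no fold threshold). The median log2 effect was -1.45 over the 8 members and -0.01 over all genes. Members that passed the filter only through libraries without change 3 had to be lower with it, Hoxb8, Hoxb6, Hoxb5 and Hoxb3 among them. Of the 5 called lower, only Hoxb9 would also have passed on the libraries with the change. The count and the median therefore describe the 8 genes and not the cluster.

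Hoxb9 ranged from 3.16 to 6.35 CPM in the 8 libraries with change 3 (median 5.03) and from 7.53 to 12.98 in the 6 of R1, R2 and R12 (median 9.39), a log2 effect of -0.96 ± 0.13, adjusted p = 4e-05 (edgeR). Hoxb8 ranged from 0 to 0.718 CPM with the change (median 0.357) and from 1.04 to 2.08 in R1, R2 and R12 (median 1.14), an effect of -1.94 ± 0.36, adjusted p = 0.00054 (edgeR). Hoxb3 ranged from 0 to 0.281 CPM with the change (median 0.141) and from 0.543 to 1.604 in R1, R2 and R12 (median 0.955), an effect of -3.03 ± 0.36, adjusted p = 1.1e-05 (edgeR). For these 3 genes and for Hoxb6, the 8 mutant libraries with the change lay below all 8 without it, rCdx2-OE included. The mouse protein, which has the same 3 changes, was not in this fit. The lowest of the mCdx2-OE and rCdx2-OE libraries stood at 7.35 CPM for Hoxb9, 1.24 for Hoxb8, 0.715 for Hoxb3 and 0.167 for Hoxb6. In each gene that was above every mutant library with change 3.

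Hoxb6 and Hoxb5 were almost undetected in the mutants with change 3. Hoxb6 ranged from 0 to 0.101 CPM with the change, at 0 in 5 of 8 libraries, and from 0.129 to 0.592 in R1, R2 and R12 (median 0.327). Summed over 8 libraries, Hoxb6 had 4 read pairs with the change and 59 without it, a ratio of 14.2 in favour of the libraries without it (exact 95% counting interval 5.27 to 53.9, edgeR adjusted p = 6.1e-05). Hoxb5 had 2 pairs with the change and 44 without it, a ratio of 21.2 (5.53 to 181, edgeR adjusted p = 0.00061). It was at 0 in 6 of the 8 libraries with the change and in 1 of the 8 without it, replicate 1 of R1. Among the mutants alone, without rCdx2-OE, neither gene passed the filter, and the effect on Hoxb9, Hoxb8 and Hoxb3 was still called.

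Hoxb7, Hoxb4 and Hoxb13 were not called for change 3, at -0.61 ± 0.30, -0.72 ± 0.55 and 0.58 ± 0.30 on the log2 scale. Hoxb7 ranged from 0.169 to 0.606 CPM with the change and 0.241 to 0.790 in R1, R2 and R12, and Hoxb13 from 0.687 to 1.21 and 0.333 to 1.11, with overlap in both genes. The effect on Hoxb13 became 0.83, adjusted p = 0.034 (edgeR) without replicate 1 of rCdx2-OE. For changes 1 and 2, edgeR and DESeq2 each called 0 of 8 members, while 2 and 1 members had an unadjusted p below 0.05. Over all 15114 genes edgeR called 0 for either change, with 1996 and 1570 genes at an unadjusted p below 0.05. Cdx2 itself was lower with change 3 (-0.74 ± 0.26, adjusted p = 0.037, edgeR), at 37.2 to 94.4 CPM in the 8 libraries with it, against 60.6 to 146 in R1, R2 and R12 and 70.4 and 67.0 in rCdx2-OE. The 8 trophoblast markers summed to 139 to 151 CPM in the 8 libraries with the change and 169 to 478 in the 8 without it, and 4 of 7 tested were called lower (median log2 effect -1.12). The 6 embryonic stem cell markers summed to 2927 to 3434 CPM with the change and 2166 to 3223 without it, and 3 of 6 were called higher (median 0.22), with no marker of either list at 0. The part of the Cdx2 level and of these markers in the change 3 values was not tested.

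**Figure D3:**
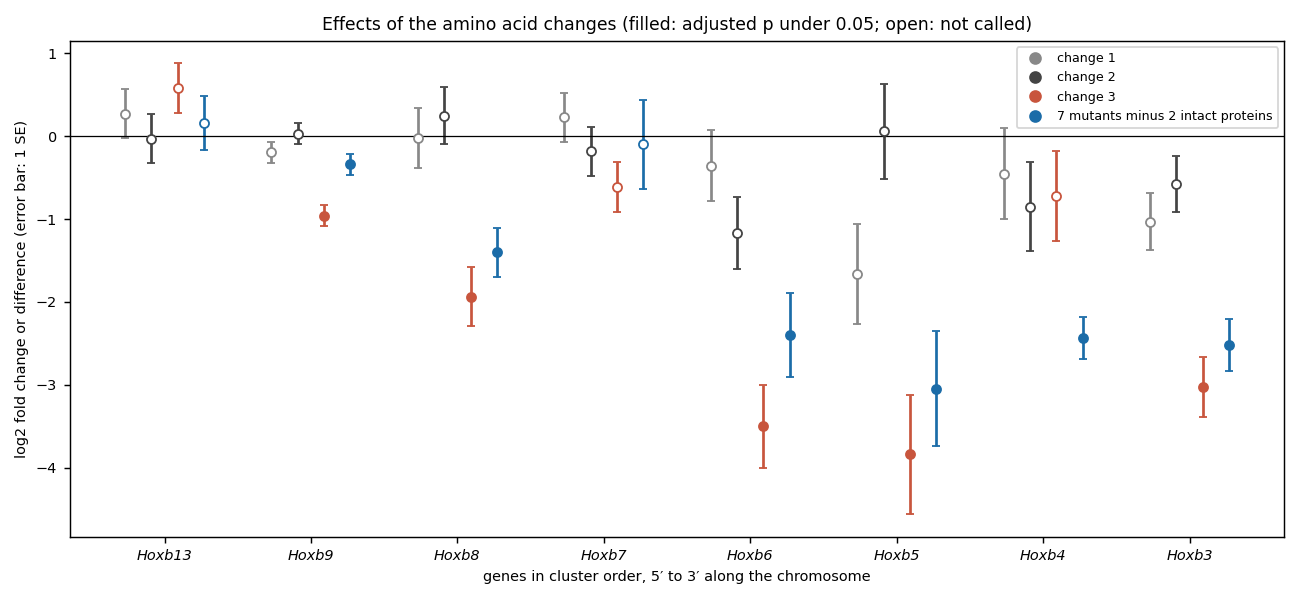
Log2 effects (± 1 SE) of changes 1, 2 and 3 across rCdx2-OE and its 7 mutants, and of all 7 mutants minus mCdx2-OE and rCdx2-OE, for the 8 Hoxb genes tested. Change 3 lies furthest below 0 for Hoxb5 and Hoxb6, whereas for Hoxb4 the contrast of mutants with intact proteins (-2.44) is the one that was called.

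Hoxb4 followed another pattern. It measured 2.51 to 3.50 CPM in the 4 libraries of mCdx2-OE and rCdx2-OE, and 0.129 to 1.37 CPM (median 0.448) in the 14 mutant libraries, with or without change 3. The 2 sets of libraries did not overlap, with a log2 difference of -2.44 ± 0.25, adjusted p = 3.4e-07 (edgeR, mutants minus intact). In all, 6 members were lower in the mutants, with 33.4% of all genes called lower: beside Hoxb4 these were Hoxb9 (-0.34 ± 0.13, adjusted p = 0.026), Hoxb8 (-1.40 ± 0.30), Hoxb6 (-2.40 ± 0.51), Hoxb5 (-3.05 ± 0.70) and Hoxb3 (-2.52 ± 0.32). Hoxb9 lost its call without replicate 1 of mCdx2-OE (-0.29) or replicate 2 of rCdx2-OE (-0.28). Hoxb13 and Hoxb7 were not called, at 0.15 ± 0.33 and -0.10 ± 0.54. Any member that passed the filter only through libraries of the intact proteins had to be lower in the mutants. In the same contrast 5 of 7 tested trophoblast markers were called lower and 1 higher (median log2 difference -1.29), and 5 of 6 embryonic stem cell markers were called higher, which summed to 2661 to 3434 CPM in the mutants and 2166 to 2404 with the intact proteins. Of 9 fibroblast markers, 6 were tested and 3 called lower, with sums of 1.28 to 3.98 CPM in the mutants and 3.84 to 4.46 with the intact proteins. The part of these markers in the Hoxb values was not tested.

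R123 carries the same 3 changes as mCdx2 has in the DNA-binding domain, yet Hoxb4 was 0.412 and 1.37 CPM in R123 and 2.51 and 3.12 in mCdx2-OE, a pair of constructs not tested on their own. Hoxb5os, a non-coding gene antisense to Hoxb5 and Hoxb6 that was counted by strand, separated in the same way: it was at 0 and 0.0342 CPM in WT, 0.269 to 1.21 with mCdx2-OE and rCdx2-OE, and 0 to 0.166 in the mutants. Its highest mutant library held 3 read pairs, and edgeR called the difference (adjusted p = 2.7e-05). Hoxb2, below the filter, was at 0 in all 6 libraries of R1, R2 and R12, and Hoxb1 was at 0 in all 14 mutant libraries, which allows up to 0.241 CPM in the shallowest. Each construct was delivered to cells separately, so the amino acid changes and other differences between the intact and mutant lines cannot be told apart.

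RMES cells carry a mouse and a rat copy of the cluster in 1 nucleus, and the question was how each copy responds to Cdx2. Uninduced RMES cells already expressed the central Hoxb genes: on the mouse allele, per length, Hoxb9 stood at 9.31 ± 0.268 CPM per kb (SD, n = 2), Hoxb8 at 3.91 ± 0.0972, Hoxb4 at 3.66 ± 0.147, Hoxb7 at 2.44 ± 0.0527 and Hoxb3 at 1.54 ± 0.129, and the ranges of these 5 genes did not overlap. They also held Cdx2 reads, with 129 and 127 CPM on the mouse genome and 453 and 439.5 on the rat genome. The induced mCdx2-OE library had 967 and 47.2 CPM, and the rCdx2-OE library 4.45 and 879.6, respectively, so the genome with the higher Cdx2 level was that of the construct's species. Exon lengths differed between the annotations of the 2 genomes, so levels are compared within an allele only. The mCdx2-OE and rCdx2-OE libraries served as 2 replicates of induction.

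Hoxb13, the tail and prostate gene, rose on both alleles. On the mouse allele it went from 0.216 and 0.334 CPM in WT to 2.57 with mCdx2-OE and 2.34 with rCdx2-OE, and on the rat allele from 0.329 and 0.300 to 2.27 and 1.70. The log2 fold changes were 3.13 ± 0.33 and 2.64 ± 0.36 (adjusted p = 1.6e-06 and 6.3e-06, edgeR), and WT and induced libraries did not overlap. Hoxb4 fell on both alleles, from 9.65 and 9.11 CPM to 2.31 and 2.27 on the mouse allele and from 5.92 and 5.74 to 1.20 and 1.93 on the rat allele. Its log2 fold changes were -2.03 ± 0.16 and -1.89 ± 0.23 (adjusted p = 8.1e-08 and 1.5e-06, edgeR).

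In all, 1 of 8 tested members was called higher and 4 lower on the mouse allele, where 28.3% and 16.1% of 16887 genes were. On the rat allele 2 of 10 were called higher and 3 lower, against 28.3% and 14.2% of 14627 genes. The median log2 fold change of the members was -0.81 on the mouse allele and -0.46 on the rat allele, beside 0.08 and 0.07 over all genes. On the mouse allele the 6 embryonic stem cell markers summed to 4433 to 4466 CPM in WT and 1805 to 1847 induced, and the 8 trophoblast markers to 165 to 173 and 623 to 716. The 7 posterior mesoderm markers, all listed, summed to 89.1 to 91.2 CPM in WT with Msgn1 and Mesp1 at 0, and to 1.91 to 2.86 induced with Msgn1 at 0. On the rat allele the same markers, 6 of 7 listed, summed to 85.8 to 86.2 and 4.36 to 6.24. The 9 fibroblast markers, all listed, summed to 22.6 to 27.6 CPM in WT and 8.05 to 10.97 induced on the mouse allele. On the rat allele the fibroblast markers summed to 20.6 to 26.8 CPM in WT and 23.96 to 30.3 induced. Of 5 tested on the mouse allele 3 were called lower and 1 higher, and of 4 on the rat allele 2 lower and 1 higher. The part of all these markers in the Hoxb values, and in their differences between alleles, was not tested.

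Hoxb8, Hoxb7 and Hoxb3 fell on the mouse allele. Hoxb8 went from 10.5 and 10.1 CPM to 4.36 with mCdx2-OE and 3.01 with rCdx2-OE (-1.48 ± 0.17, adjusted p = 4.2e-06, edgeR), while on the rat allele it was 1.32 and 1.47 in WT and 1.44 and 1.65 induced (0.15 ± 0.27, adjusted p = 0.63, edgeR). Hoxb3 went from 6.16 and 6.94 CPM to 2.57 and 2.58 on the mouse allele (-1.35 ± 0.17, adjusted p = 9.1e-06, edgeR), and from 2.74 and 2.702 to 1.39 and 2.32 on the rat allele (-0.55 ± 0.26, adjusted p = 0.062, edgeR). Hoxb7, a trunk gene, went from 3.82 and 3.71 CPM to 1.79 and 1.22 on the mouse allele (-1.32 ± 0.23, adjusted p = 0.00016, edgeR). On the rat allele it was 0.658 and 0.767 in WT and 0.426 and 0.313 induced (-0.94 ± 0.41, adjusted p = 0.043, edgeR), a change under 2-fold and not called.

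Hoxb9 fell over 2-fold on the rat allele alone. It went from 20.1 and 19.7 CPM to 6.05 with mCdx2-OE and 5.75 with rCdx2-OE (-1.75 ± 0.12, adjusted p = 1.5e-09, edgeR). On the mouse allele it went from 24.4 and 23.5 to 20.6 and 18.2 (-0.30 ± 0.09, adjusted p = 0.0087, edgeR), lower in both induced libraries and under 2-fold. Hoxb6 had 5 and 2 rat-allele read pairs in WT against 15 and 27 after induction (2.14 ± 0.60, adjusted p = 0.0041, edgeR). That call was lost without replicate 2 of WT (1.59), without the rCdx2-OE library (1.68) and by DESeq2 (adjusted p = 0.063). On the mouse allele Hoxb6 was not called (0.42 ± 0.37), and its WT libraries differed, at 1.66 and 0.697 CPM. Without replicate 1 of WT the mouse-allele change was 1.16, adjusted p = 0.041 (edgeR).

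Hoxb5 was called on neither allele. It measured 0.647 and 0.753 CPM in WT and 0.739 and 0.765 induced on the mouse allele (0.10 ± 0.33), and 0.402 and 0.300 in WT and 0.320 and 0.313 induced on the rat allele (-0.14 ± 0.48). The 3′ genes were tested on the rat allele only. Hoxb2 had 22 and 19 rat-allele read pairs in WT and 17 and 25 after induction (-0.37 ± 0.39, not called). Hoxb1 had 13 and 13 in WT and 5 and 8 after induction (-1.38 ± 0.52, adjusted p = 0.022, edgeR), a call lost by DESeq2 (adjusted p = 0.19), without replicate 1 of WT (-1.31) and without the mCdx2-OE library (-1.10). On the mouse allele both genes stayed under the filter, with at most 6 pairs of Hoxb2 and 2 of Hoxb1 in a library.

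**Figure D4:**
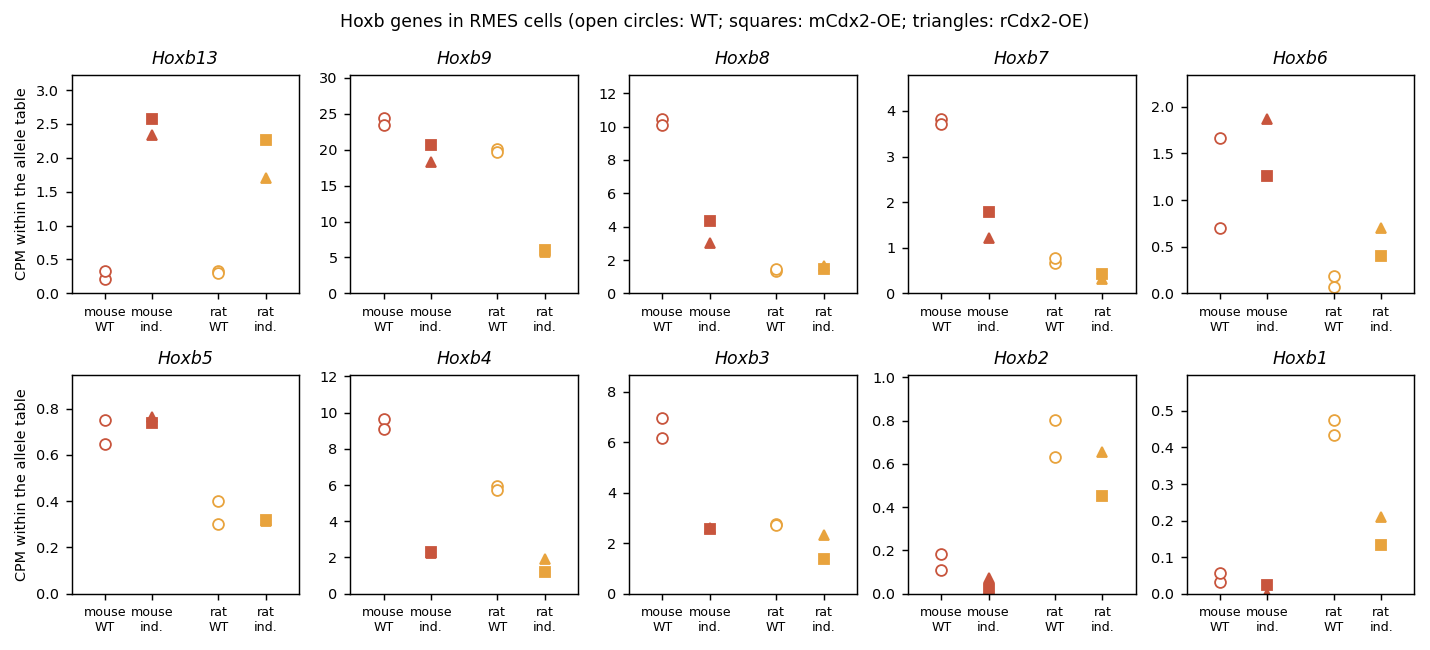
Level of each Hoxb gene in CPM within the mouse-allele table (red) and the rat-allele table (orange) of RMES cells, with 1 point per library: 2 WT (open circles), mCdx2-OE (square) and rCdx2-OE (triangle). Hoxb9 is lower after induction on the rat allele, at 6.05 and 5.75 CPM, and Hoxb8 on the mouse allele, at 4.36 and 3.01 CPM.

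The difference of induction between the alleles was tested as an interaction within libraries. It was called for Hoxb9 (1.42 ± 0.13, adjusted p = 8.1e-10, mouse minus rat allele), Hoxb8 (-1.67 ± 0.30, adjusted p = 3.1e-05), Hoxb6 (-1.74 ± 0.70, adjusted p = 0.034) and Hoxb3 (-0.81 ± 0.29, adjusted p = 0.017), all by edgeR, that is for 4 of 10 members against 62.2% of 13605 genes. Hoxb6 lost its call by DESeq2 and without any 1 of the 4 libraries (log2 -1.86 to -1.58), and Hoxb3 by DESeq2, without replicate 2 of WT (-0.70) and without the rCdx2-OE library (-0.40). Hoxb13 (0.46 ± 0.60), Hoxb4 (-0.16 ± 0.26), Hoxb7 (-0.41 ± 0.48) and Hoxb5 (0.21 ± 0.69) were not called. Hoxb9 was thus nearer to its WT level on the mouse allele, and its neighbour Hoxb8 on the rat allele.

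Induction also differed between RMES cells and mESC. The interaction (RMES mouse allele minus mESC) was called for all 9 members tested, against 53.2% of 17912 genes. Hoxb13 was the 1 member with a positive difference (3.72 ± 0.56, adjusted p = 0.00015, edgeR), and the other 8 were negative, from -2.34 ± 0.17 for Hoxb9 to -6.80 ± 0.65 for Hoxb3. Hoxb7 lost its call without any of 4 libraries (replicate 1 of mESC rCdx2-OE, either RMES WT library or the RMES rCdx2-OE library, log2 -2.73 to -2.41), and Hoxb2 without replicate 1 of RMES WT (-2.99) or the RMES mCdx2-OE library (-2.81). The starting levels differed: Hoxb8 was 10.5 and 10.1 CPM in WT RMES and 0.0708 and 0.0342 in WT mESC, and Cdx2 was 129 and 127 against 1.36 and 1.21 CPM.

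Accessible chromatin was measured by ATAC-seq in WT and mCdx2-OE mESC, with 1 library each, so the changes have no replicate check and no test. Intervals are exact 95% intervals of the log2 ratio (mCdx2-OE over WT) without the 1 that is added for the printed ratios, and they cover counting error only. Within the cluster and 10000 bases to each side, 32 of 122350 ATAC peaks were listed, and 26 reached the minimum of 40 scaled reads. Of these, 4 were over 2-fold higher and 4 over 2-fold lower in mCdx2-OE, beside 13.7% and 20.5% of 85394 peaks genome-wide. The 4 higher peaks all lay between Hoxb9 and Hoxb2, and the 4 lower ones lay outside the block from Hoxb9 to Hoxb1. With unscaled reads the counts were 9 higher and 2 lower.

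The peak at the 3′ end of Hoxb8 (chr11:96284201-96285621) had 19 reads in WT and 87 in mCdx2-OE, a log2 ratio of 1.71 (1.03 to 2.56). The peak between Hoxb9 and Hoxb8 (chr11:96276925-96279115) had 44 reads in WT and 129 in mCdx2-OE, a ratio of 1.10 (0.61 to 1.64). In an exon of Hoxb6 (chr11:96298959-96299518) there were 18 reads in WT and 51 in mCdx2-OE (1.03, 0.26 to 1.93), and in an exon of Hoxb2 (chr11:96352918-96353582) there were 17 reads in WT and 49 in mCdx2-OE (1.05, 0.27 to 1.98). The 2 peaks beside Hoxb8 overlapped a Cdx2 ChIP peak and the other 2 did not, where 58.3% of the higher peaks genome-wide did. The peak over the Hoxb8 start site (chr11:96281682-96282045) had 1 read in WT and 35 in mCdx2-OE, and did not reach the minimum total, but its log2 ratio of 3.85 was the largest of the 32. Without the added 1 the ratio was 4.69, with an interval of 2.12 to 10.03. The lower peaks were upstream of Hoxb13 (chr11:96190037-96190672, log2 ratio -2.94), between Hoxb13 and Hoxb9 (chr11:96234875-96235346, -1.13), in an intron of Gm53, a non-coding gene upstream of Hoxb9 (chr11:96255295-96255907, -1.16), and beyond Hoxb1 (chr11:96374759-96375193, -2.37). None of the 4 overlapped a Cdx2 peak, where 2.97% of the lower peaks genome-wide did.

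Cdx2 ChIP-seq in mESC listed 16 of 91665 peaks at the locus, called by the authors on merged reads. The strongest covered the Hoxb8 start site (chr11:96281629-96282168), with 336 reads with mCdx2 and 345 with rCdx2, and it lay at percentile 99.2 of all peaks by total reads. The peak in Hoxb4 (chr11:96319165-96319570) had 173 reads with mCdx2 and 224 with rCdx2, the peak between Hoxb9 and Hoxb8 (chr11:96277875-96278214) had 203 reads with mCdx2 and 184 with rCdx2, and a peak upstream of Hoxb4 (chr11:96316348-96316678), ahead of the microRNA gene Mir10a, had 185 reads with mCdx2 and 183 with rCdx2. These 4 peaks and the 143 reads with mCdx2 and 124 with rCdx2 at the 3′ end of Hoxb8 stood above the other 11, which held at most 83 reads with mCdx2. Of the 10 start sites, those of Hoxb8 and Hoxb6 were covered by a peak, the second with 23 reads with mCdx2 and 23 with rCdx2.

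At each of these peaks, mCdx2 and rCdx2 reads differed by less than 2-fold after scaling. Summed over the 16 peaks there were 1528 reads with mCdx2 and 1511 with rCdx2, the scaled log2 ratios (mCdx2 over rCdx2) ran from -0.54 to 0.70, beside 2-fold differences at 0.452% of all peaks in favour of mCdx2 and 0.46% in favour of rCdx2. The Hoxb4 peak had the lowest ratio, -0.54 (-0.83 to -0.25), a counting interval that did not reach 0. With 1 library per construct there is no test. The 7 mutants were not profiled by ChIP-seq among the samples used here. The rCdx2 library is described in 1 label field as a ChIP of mCDX2, and it was taken as rCdx2 from its title and genotype.

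In RMES cells 7 of 74650 peaks on the mouse genome were at the locus, and all 7 overlapped mESC peaks, the ones at the Hoxb8 start, between Hoxb9 and Hoxb8, upstream of and within Hoxb4, upstream of Hoxb9 and on either side of Hoxb2. That is 7 of the 16 mESC peaks, where 64.8% of all mESC peaks overlapped an RMES peak and 80.1% of all RMES peaks a mESC peak. The Hoxb8 start again had the most reads, 182 with mCdx2 and 110 with rCdx2. The log2 ratios ran from -0.79 to 0.36 and none exceeded 2-fold (0.977% and 1.11% of all peaks did). The 2 columns of that file carry abbreviations, and they were assigned to mCdx2 and rCdx2 by the first letter.

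**Figure D5:**
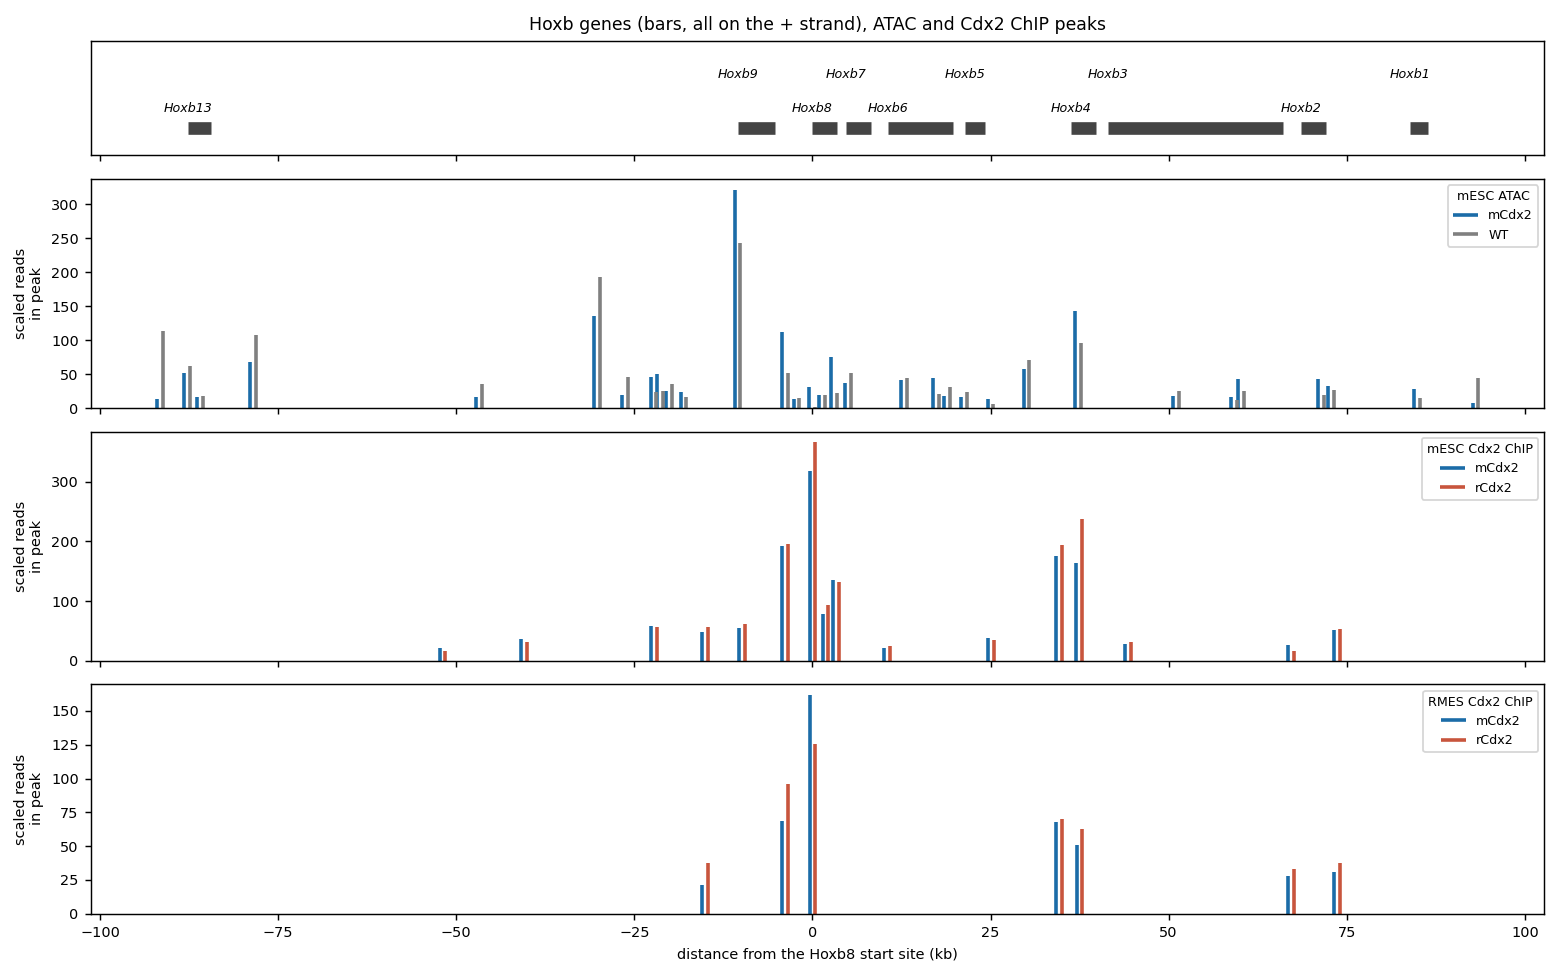
Hoxb genes (bars) and scaled reads per peak against the distance from the Hoxb8 start site in kb, for ATAC-seq in mESC (mCdx2-OE and WT) and Cdx2 ChIP-seq in mESC and RMES (mCdx2 and rCdx2). The tallest ChIP lines in both cell types stand at the Hoxb8 start site, with a second group around Hoxb4.

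Of the 16 mESC Cdx2 peaks, 12 held the Cdx2 motif in their central 300 bases, and so did all 7 RMES peaks, where 51.5% and 52.0% of all Cdx2 peaks did. The peak between Hoxb9 and Hoxb8 had the most, with 4 matches, and the Hoxb8 start had 1. Of the 16 peaks, 7 lay in an ATAC peak, against 19.98% of all mESC Cdx2 peaks. RefSeq promoter windows of 300 bases around the start (GRCm38.p6) were listed for Hoxb8, Hoxb4 and Hoxb1. The Hoxb8 promoter held 2 matches, both strands searched, and the other 2 promoters held none, where 12.6% of 32851 promoters held at least 1. The Hoxb8 window (chr11:96281655-96281954) starts ahead of the stretch printed above, which holds 1 match.

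The other Hox clusters were measured in the same fits. With mCdx2-OE, 10 of 10 tested Hoxa genes, 7 of 9 Hoxc genes and 8 of 8 Hoxd genes were called higher, and with rCdx2-OE 10 of 10, 6 of 9 and 8 of 8, beside 6 of 8 Hoxb genes. The median log2 fold change with mCdx2-OE was 4.64 for Hoxa, 3.23 for Hoxc and 4.50 for Hoxd. In any cluster, genes that the filter kept only through induced libraries had to be higher there. For change 3, 5 of 9 Hoxa, 1 of 9 Hoxc and 2 of 7 Hoxd genes were called lower, with medians of -1.03, 0.08 and -0.24, beside 5 of 8 and -1.45 for Hoxb. Genes of any cluster that the filter kept only through libraries without change 3 had to be lower with it, Hoxb8, Hoxb6, Hoxb5 and Hoxb3 among them. Whether the clusters differ in this was not tested.

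Among 12 regulators and cofactors of Hox genes, 11 were tested in mESC. Meis1, Meis2, Meis3 and Pknox2, homeodomain partners of Hox proteins, rose with both constructs, Meis1 by 2.71 ± 0.20, adjusted p = 6.3e-09 with mCdx2-OE and 2.85 ± 0.20, adjusted p = 3e-09 with rCdx2-OE (edgeR). Pbx3 was called with mCdx2-OE (1.14 ± 0.13, adjusted p = 1.5e-06, edgeR) and measured 0.99 ± 0.14, adjusted p = 7.4e-06 with rCdx2-OE (edgeR), where the fold stayed under 2. Cdx1, a paralogue of Cdx2, was at 59.5 and 56.7 CPM in WT, 30.4 and 31.5 with mCdx2-OE and 29.2 and 22.6 with rCdx2-OE. It was called lower with rCdx2-OE (-1.16 ± 0.12, adjusted p = 2.4e-07, edgeR), and with mCdx2-OE it passed the adjusted p but not the 2-fold threshold (-0.91 ± 0.12, adjusted p = 3.5e-06, edgeR). The difference between the constructs is not given here for either gene. In RMES cells Cdx1 fell from 331 and 298 CPM to 21.8 with mCdx2-OE and 18.2 with rCdx2-OE on the mouse allele (-3.97 ± 0.09, adjusted p = 2.2e-12, edgeR), and Cdx4 fell as well (-3.12 ± 0.27, adjusted p = 2.4e-07). Both also fell on the rat allele, while Meis1, Meis3 and Pknox2 rose on both alleles.

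Of 10 genes that flank the cluster, 8 were tested in mESC. With each intact construct, 1 was called higher (Calcoco2) and 3 lower (Atp5g1, Cbx1 and Snx11). Gm53, the non-coding gene between Hoxb13 and Hoxb9, differed by less than 2-fold from WT (0.68 ± 0.14, adjusted p = 0.00046 with mCdx2-OE, edgeR). The 5 genes outside the Hox clusters whose levels most resembled the mean profile of the 8 tested members over the 18 induced mESC libraries were Rassf1, Slc27a4, P4hb, Ascl2 and BC017643, with Pearson correlations of 0.953 to 0.939. They ranked first of 13139 genes, over libraries that share constructs and counting runs, and the values are a description. The correlations are of log2 CPM, with members averaged as z-scores, after the mean of each counting run was subtracted from each gene.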

How the data were processed

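RNA-seq, ATAC-seq and ChIP-seq values are counts that the authors deposited without normalisation. Per the submitters' processing notes and the study's methods, RNA-seq reads were aligned with STAR 2.7.0d and read pairs counted by strand with featureCounts on an Ensembl annotation without pseudogenes, each mESC replicate in a run of its own. RMES reads were first assigned to the mm10 or rn6 genome. ATAC-seq and ChIP-seq reads were aligned with Bowtie2 2.3.4.3, peaks were called with MACS2 on merged reads and reads counted in these peaks, so a peak cannot be said to be called in each library.

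Counts were tested with edgeR 4.0.16 and limma 3.58.1 in R 4.3.3, with TMM scaling, filterByExpr and the quasi-likelihood test, and p-values were adjusted by the Benjamini-Hochberg method over all genes tested. SE is the log2 fold change divided by the square root of F. The mESC contrasts shared 1 fit of 20 libraries, changes 1 to 3 an additive fit of 16 libraries, and allele differences were interaction terms with 1 coefficient per library. Calls needed an adjusted p below 0.05, and over 2-fold change (log2 above 1) for comparisons with WT. Peak ratios were scaled to equal totals, with 1 added, and their exact 95% Clopper-Pearson intervals are those of the ratio without that addition. The pipeline was run on counts simulated from the fitted means and spread, as a check of the code only. Differences between replicates 1 and 2 correlated across genes by -0.16 to 0.57 over 45 pairs of mESC conditions, and by 0.20 to 0.34 over the 21 pairs among the 7 mutants, so the numbers pair the mutant libraries but not all conditions, as read from the data and not from the labels. Cdx2 was higher in replicate 1 and Hoxb9 and Hoxb7 in replicate 2 of all 7 mutants. Alternatives were DESeq2 1.42.0, its size factors, no filter, the replicate block, fewer libraries, leaving out each library and, added after seeing the data, thinned WT libraries. Gene positions are from GENCODE M21 and sequences from the GRCm38.p6 reference, cut with samtools 1.23.1. All members are named; other genes are named from lists, where called, and by the 5 highest correlations over genes with a mean of at least 1 CPM. Members and lists were chosen with earlier results of these data known. ChIP counts on the rat genome were not used.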

Additional observations from a re-analysis of the deposited data

Results flagged for a closer look

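The results below are differences between the responses of 2 alleles or 2 cell types, each with a test of the difference itself (edgeR, adjusted p below 0.05). On the log2 scale, mouse minus rat allele of RMES cells, induction differed for Hoxb9 by 1.42 ± 0.13, for Hoxb8 by -1.67 ± 0.30, for Hoxb6 by -1.74 ± 0.70 and for Hoxb3 by -0.81 ± 0.29. Hoxb9 and Hoxb8 have opposite signs. RMES mouse allele minus mESC, induction differed for Hoxb13 by 3.72 ± 0.56, Hoxb9 by -2.34 ± 0.17, Hoxb8 by -6.41 ± 0.45, Hoxb7 by -2.70 ± 0.92, Hoxb6 by -3.60 ± 0.94, Hoxb5 by -5.24 ± 0.88, Hoxb4 by -5.47 ± 0.27, Hoxb3 by -6.80 ± 0.65 and Hoxb2 by -3.37 ± 1.05. For genes with few read pairs in WT mESC (Hoxb8, Hoxb7, Hoxb6, Hoxb5, Hoxb3 and Hoxb2) the size of the second difference depends on the small count that edgeR adds. Conditions with 2 libraries were too small to be searched for single deviating libraries.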

How the results depend on the processing

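Across 1082 alternative values of single members, 1008 kept direction and side of the threshold, 55 lost the call, 7 gained it and 12 changed sign. Counts of members called moved by over 1.5 times in these cases. Change 3 gave 3 members lower among the mutants alone (5 with rCdx2-OE), where Hoxb5 and Hoxb6 were not tested, and Hoxb4 turned to 0.35. Members higher for change 3 ranged over 0 to 1 when single libraries were left out. Without the filter, mCdx2-OE had 1 member lower (against 0). DESeq2 gave 1 member higher on the rat allele (against 2), 1 lower for the allele difference (against 3) and 0 calls lower among the mutants (against 1), as did the thinned WT libraries (0), an alternative chosen after seeing the data. Leaving out 1 library, the ranges were 0 to 1 lower with rCdx2-OE, 1 to 2 higher on the mouse allele, 1 to 2 higher on the rat allele, 1 to 2 lower for the allele difference and 0 to 1 calls lower and 21 to 26 higher among the mutants. ATAC peaks without scaling were 9 higher and 2 lower (against 4 and 4). The cause of these shifts was not tested. Signs turned only where a member had not been called, except Hoxb8 in R23, and leaving out 1 library gave log2 values of -0.0613 to 5.65 for Hoxb7 (mCdx2-OE against WT in mESC), -0.25 to 0.50 for Hoxb8 (mCdx2-OE against rCdx2-OE in mESC), -0.10 to 0.95 for Hoxb13 (7 mutants against 2 intact proteins in mESC), -0.0901 to 1.16 for Hoxb6 (Cdx2 induction on the RMES mouse allele), -0.00147 to 0.21 for Hoxb5 (Cdx2 induction on the RMES mouse allele), -0.33 to 0.0842 for Hoxb5 (Cdx2 induction on the RMES rat allele), -0.10 to 0.53 for Hoxb5 (difference of induction between RMES alleles), -0.50 to 0.24 for Hoxb4 (difference of induction between RMES alleles), -2.59 to 0.93 for Hoxb1 (difference of induction between RMES alleles), -3.41 to 3.12 for Hoxb8 (rCdx2 mutant R23 against WT in mESC). With the replicate number as a block, members called higher stayed at 6 with mCdx2-OE and came to 7 with rCdx2-OE (Hoxb7, 2.03, adjusted p = 0.018, edgeR, a call also made with thinned WT libraries), mutant calls higher came to 27 (against 25), and change 3 stayed at 5 lower and mutants against intact proteins at 6 lower. Depth limits the members with few read pairs, among them Hoxb1, Hoxb2, Hoxb5, Hoxb6 and Hoxb7, which were below 10 in most mESC libraries.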
